A study of Mus musculus with 6 samples.

Results

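Histone genes were examined in mouse heart cells that expressed a mutant or a wild-type histone H3.3. The members are all rows of the deposited count table whose gene symbol starts with Hist1h to Hist4h, H2af, H3f3 or H1f, and there were 59 of them among 15159 genes. Of these, 11 carry symbols of variant histones and 48 carry symbols of replication-dependent histones. The cells came from hearts of C57BL/6 x 129S4/SvJae embryos at day 18.5 and were grown for 4 days on silicone (PDMS) of 13 kPa. The 3 H3WT samples carried an inducible transgene for wild-type H3.3. The 3 H3K9M samples carried an inducible H3.3 transgene with methionine in place of lysine 9, described by the labels as suppressing methylation at that residue. Both groups received doxycycline at 2 µg/ml to switch the transgene on, so H3WT is a control that also expresses extra H3.3. Neither a promoter nor a cell type is named for the transgene. Separate animals are not stated for the 3 samples per group either, and p-values therefore reflect spread among these samples, which may be technical. The titles of replicate 2 in both groups do not name the soft substrate, while the growth protocol gives it for all samples. Those of replicate 1 lack the D4 of the other titles, while that protocol gives 4 days for all samples.

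Nucleosomes wrap DNA around a core of the histones H2A, H2B, H3 and H4, and linker histones of the H1 family bind the DNA between them. Replication-dependent histone genes lie in clusters and are transcribed mainly in S phase, and their mRNAs classically end in a stem-loop bound by SLBP in place of a poly(A) tail. Variant histone genes such as those of H3.3 and H2A.Z are transcribed throughout the cell cycle into ordinary polyadenylated mRNAs, and they are the main source of new histone in cells that no longer divide, such as mature cardiomyocytes. The RNA sequenced here was polyadenylated RNA, so an mRNA that ends at its stem-loop is expected to be captured poorly, and the counts below are those of transcripts with a poly(A) tail or of incidental capture.

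The first sequences shown are the starts of H3 coding sequences, because lysine 9 is the residue that the transgene replaces. They are from GENCODE M21 transcripts on build GRCm38, 5′ to 3′ from the start codon, with the codon of lysine 9 in capitals (the residue after the initiator methionine is counted as the first).
H3f3a: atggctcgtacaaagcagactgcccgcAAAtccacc
H3f3b: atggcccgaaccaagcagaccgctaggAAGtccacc
Hist1h3d: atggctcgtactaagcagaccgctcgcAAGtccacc
Hist2h3c1: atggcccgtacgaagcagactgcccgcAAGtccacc
The 2 H3.3 genes are known to encode the same protein. Their coding sequences of 411 bases were 76.9% identical (95 bases differed), and either was 77.1% to 81.8% identical to those of the 8 replication-dependent H3 genes in the table. A change of the lysine 9 codon to methionine needs 2 bases in H3f3a and 1 in H3f3b. The nucleotide sequence of the transgene is not given in the sources used here, and its reads cannot be told from endogenous H3.3 reads in a count per gene.

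No histone gene passed the test between H3K9M and H3WT. With edgeR's quasi-likelihood test and a Benjamini-Hochberg adjusted p limit of 0.05, 0 of 52 tested histone genes were called, while 1.99% of all 14758 tested genes were called (0.935% higher and 1.05% lower in H3K9M). At an unadjusted p under 0.05 there were 3 higher and 1 lower among the 52 histone genes, against 16.4% of all tested genes. With shared counts taken once, 2 were higher and 1 lower. DESeq2 gave an adjusted p for 41 of the 52 and none for the other 11, all replication-dependent. It called 2 of the 41, Hist2h2aa1 and Hist2h2aa2, which hold the same counts, where 6.9% of all tested genes were called. That share is over all 14758 tested genes, including 575 that were given no adjusted p. The remaining 7 members had too few counts to be tested: Hist1h1a, Hist1h2ah, Hist1h2ao, Hist1h2ap, Hist1h2bk, Hist1h2bp and H2afy3. In 8 of the 52 genes (15.4%) the groups stood apart with no overlap, against 22.6% of all tested genes. With shared counts taken once, they stood apart in 3 of 39 replication-dependent genes (7.69%) and in 3 of 10 variant genes (30%). The median log2 fold change was -0.15 over the 10 tested variant genes and 0.03 over the 42 tested replication-dependent genes, beside -0.0024 over all tested genes. Over all tested genes 7309 fold changes were positive and 7449 negative.

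**Figure D1:**
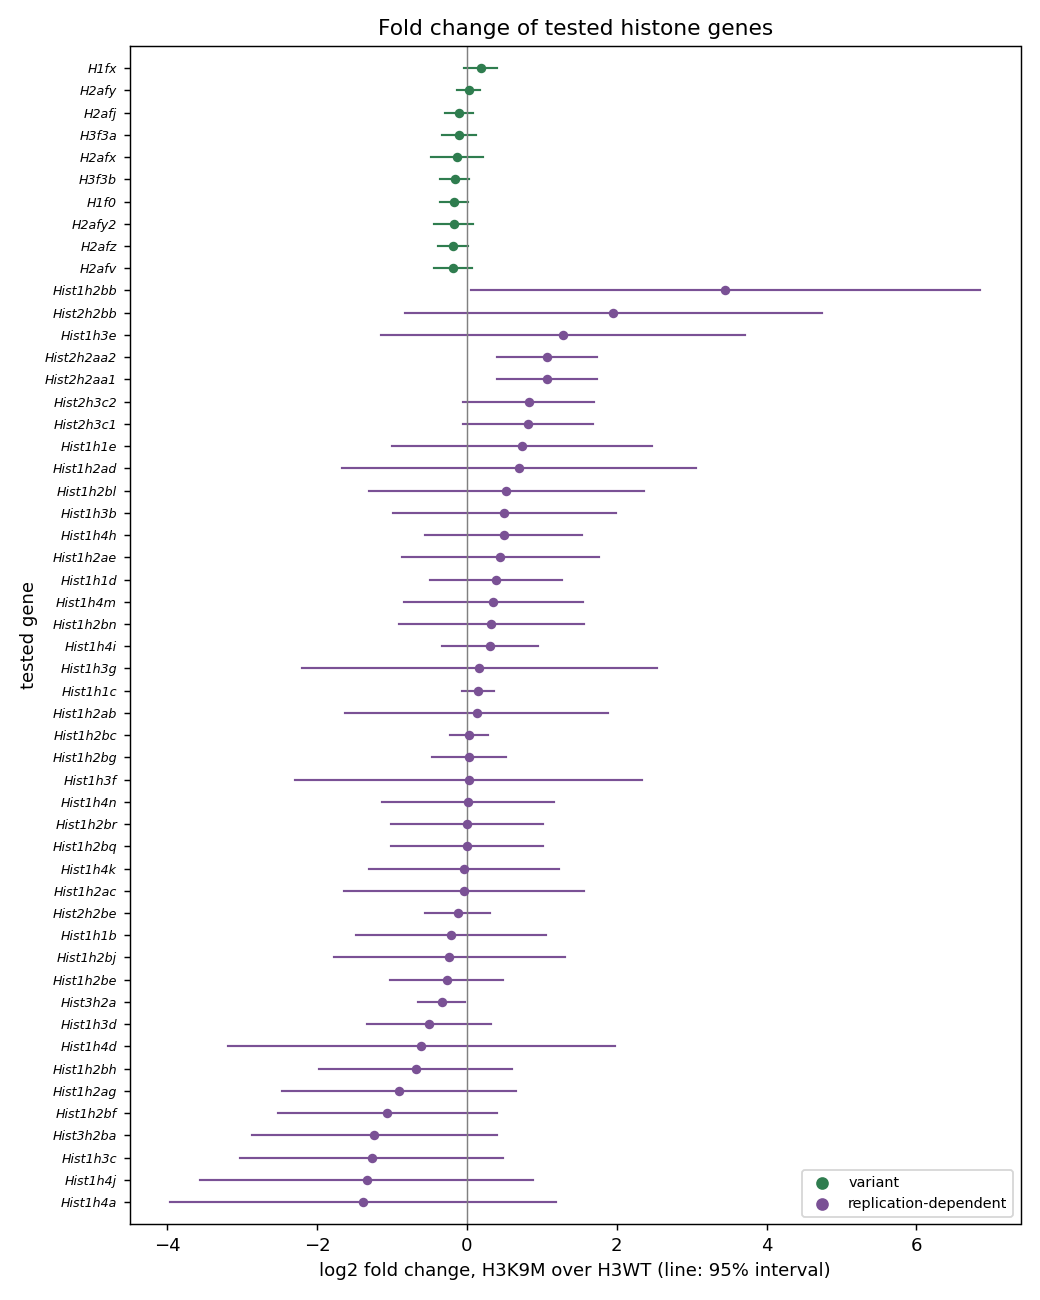
Log2 fold change of each of the 52 tested histone genes, H3K9M over H3WT, as a point with its 95% interval as a line, green for variant and purple for replication-dependent genes. The intervals of the 10 variant genes are short and all include 0, while those of all but 6 replication-dependent genes reach beyond 2-fold on at least 1 side.

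H3.3 itself was the most abundant histone transcript. H3f3a, which encodes H3.3, was at 1546, 1528 and 1322 CPM (read counts divided by the library size after TMM scaling) in H3WT and at 1479, 1339 and 1263 CPM in H3K9M. The groups overlapped, and the log2 fold change was -0.11 ± 0.10 (SE; edgeR adjusted p = 0.653), a ratio of 0.928 with a 95% interval of 0.793 to 1.09. H3f3b, the second gene for the same protein, was at 226, 261 and 237 CPM in H3WT and at 202, 226 and 220 CPM in H3K9M. Its groups overlapped by a narrow margin, with a log2 difference of -0.16 ± 0.08 (edgeR adjusted p = 0.394) and a ratio of 0.894 (0.782 to 1.02). H3f3a supplied between 84.8% and 88.0% of the CPM of both genes in the 6 samples. Since the transgene of either group may add to these counts, the 2 values do not check the labels.

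**Figure D2:**
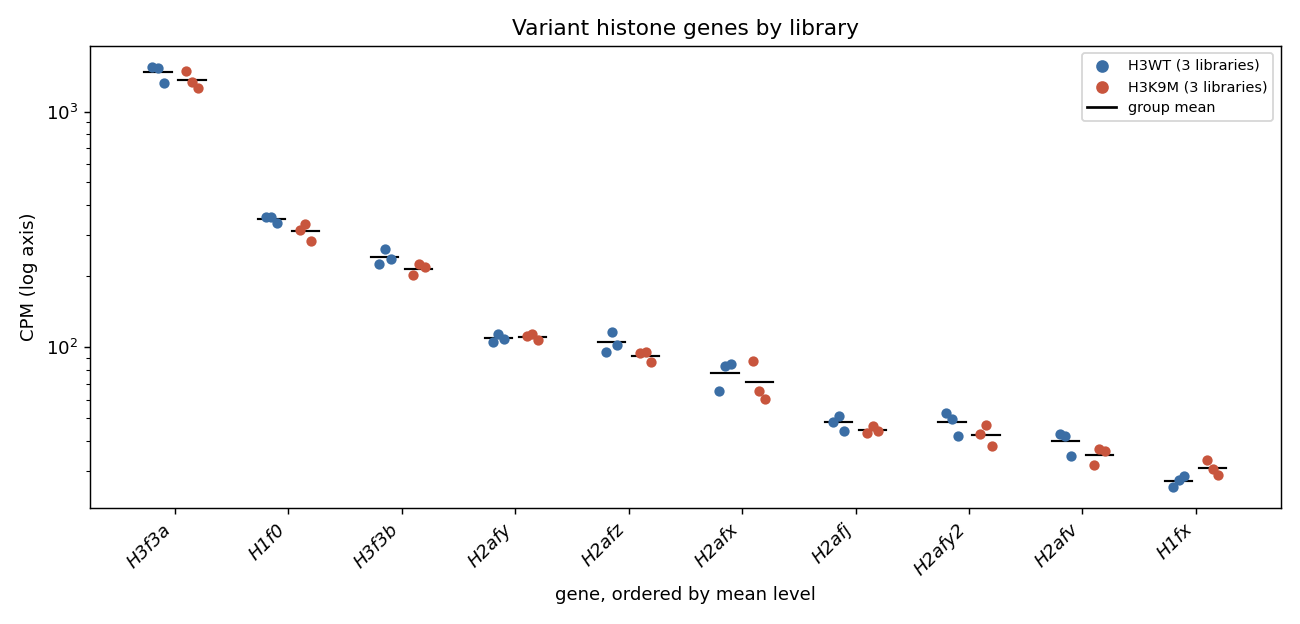
CPM of the 10 tested variant histone genes on a log axis, with 1 point per library (blue H3WT, red H3K9M) and a black line at each group mean. H3f3a stands above all others, between 1263 and 1546 CPM, and the points of the groups lie apart for H1f0, H2afz and H1fx alone.

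No H2A variant gene passed the test. H2afz, which encodes H2A.Z, a variant found at promoters, was at 95.8, 116 and 103 CPM in H3WT and at 94.6, 95.3 and 86.8 CPM in H3K9M. All 3 H3K9M samples lay below all 3 H3WT samples, but by less than the spread within H3WT (log2 fold change -0.19 ± 0.09, edgeR adjusted p = 0.342). For H2afv, the second H2A.Z gene, group means were 40.0 ± 4.63 CPM in H3WT (SD over the 3 samples) and 35.0 ± 2.88 CPM in H3K9M, and the groups overlapped (log2 fold change -0.19 ± 0.11, edgeR adjusted p = 0.451). The DNA damage variant gene H2afx was at 65.3, 83.0 and 84.6 CPM in H3WT and at 87.1, 65.2 and 60.6 CPM in H3K9M. Its highest sample was in H3K9M and so was its lowest, and the log2 fold change was -0.13 ± 0.15 (edgeR adjusted p = 0.731). H2afj was at 48.0 ± 3.48 and 44.6 ± 1.72 CPM (-0.11 ± 0.08, edgeR adjusted p = 0.585).

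The macroH2A genes encode H2A variants with a large extra domain that are found in silenced chromatin. H2afy was the steadiest member, at 105, 114 and 108 CPM in H3WT and at 111, 114 and 108 CPM in H3K9M. Its ratio of 1.02 had a 95% interval of 0.914 to 1.13 (edgeR adjusted p = 0.899). H2afy2 was at 48.0 ± 5.47 CPM in H3WT against 42.5 ± 4.30 CPM in H3K9M, with overlapping groups (log2 fold change -0.18 ± 0.11, edgeR adjusted p = 0.487).

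Neither of the 2 variant linker histone genes passed the test, and their fold changes had opposite signs. H1f0 encodes H1.0, the linker histone that accumulates in differentiated cells. It was at 358, 356 and 335 CPM in H3WT and at 313, 334 and 283 CPM in H3K9M. The groups did not overlap, although the nearest samples were 335 and 334 CPM (log2 difference -0.17 ± 0.08, edgeR adjusted p = 0.359). H1fx was at 25.6, 27.3 and 28.4 CPM in H3WT and at 33.4, 30.4 and 28.6 CPM in H3K9M. Every H3K9M sample was above every H3WT sample, again by a small margin (log2 fold change 0.18 ± 0.09, edgeR adjusted p = 0.388). Of the 10 variant genes 8 had negative fold changes, and for all 10 the 95% interval of the ratio lay within 1.5-fold in either direction. In 3 of the 10 (30%) the groups did not overlap, a share near the 22.6% of all tested genes.

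Per length, the order of the levels was led by H3.3 and H1.0. In CPM per kb of merged GENCODE exons, over all 6 samples, H3f3a was at 403 ± 34.1 (SD), H1f0 at 160 ± 13.7 and H3f3b at 76.8 ± 6.64, and each stood apart from its neighbours in every sample. The next were Hist1h2bc at 58.6 ± 5.75, H2afz at 55.5 ± 5.66 and H2afx at 53.7 ± 8.54 CPM per kb, whose ranges overlapped, and Hist1h1c at 41.9 ± 4.03, whose range overlapped that of H2afx. Below a gap followed H2afj (25.3 ± 1.68), H1fx (23.8 ± 2.20), H2afv (23.0 ± 2.68) and H2afy2 (20.8 ± 2.46), which overlapped each with the next, and H2afy at 16.2 ± 0.538. The exon set that the authors counted on is not given in the sources used here, so these lengths may differ from theirs. The genes of the order are thus of both kinds: 2 replication-dependent symbols, Hist1h2bc and Hist1h1c, stood among the variants.

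The second set of sequences is the 3′ stem-loop, because it is the element that sets replication-dependent histone mRNAs apart. The histone stem-loop (16 bases, 6 base pairs and a loop of 4 bases) was searched in annotated GENCODE M21 protein-coding transcripts on the transcript strand. It is in capitals, with up to 5 neighbouring transcript bases in lower case.
Hist1h1c: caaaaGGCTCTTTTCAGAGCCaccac
Hist3h2a: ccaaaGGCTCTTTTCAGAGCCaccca
Hist1h4i: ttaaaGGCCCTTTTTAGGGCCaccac
Hist2h2aa1: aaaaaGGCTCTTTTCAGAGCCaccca
Hist2h3c1: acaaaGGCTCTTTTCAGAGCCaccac
Hist1h2bb: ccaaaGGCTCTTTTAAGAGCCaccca
H2afx: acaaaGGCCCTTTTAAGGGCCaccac
A match was found in 37 of the 48 replication-dependent members and in 1 of the 10 variant genes with an annotated protein-coding transcript, H2afx, which is known to make both a stem-loop and a polyadenylated mRNA. Among protein-coding genes with other symbols, 21 of 21795 (0.0964%) held one. The form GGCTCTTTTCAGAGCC was carried by 24 members. For 4 of the 11 replication-dependent members with no match the annotated transcripts are a coding sequence alone, so that no match is possible there.

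Most replication-dependent genes were barely detected. Of the 48 rows 3 had a mean over 10 CPM, 13 lay between 1 and 10 CPM and 32 were at or below 1 CPM. In reads, 32 of the 48 had a mean below 50 counts per library and 9 had a library with 0 counts, whereas 10 of the 11 variant genes had a mean over 1000 counts. Fewer than 10 counts on average were found for 6 replication-dependent rows and for H2afy3.

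Hist1h2bc and Hist1h1c together held between 71.8% and 75.3% of the replication-dependent CPM. Hist1h2bc encodes an H2B. It was at 70.7, 74.1 and 56.4 CPM in H3WT and at 65.0, 73.6 and 66.3 CPM in H3K9M. The groups overlapped fully (ratio 1.02, 95% interval 0.856 to 1.21, edgeR adjusted p = 0.938). Between 77.1% and 81.3% of all H2B CPM came from this gene. Hist1h1c encodes the linker histone H1.2 and was at 66.6, 61.0 and 58.8 CPM in H3WT and at 76.4, 67.4 and 62.4 CPM in H3K9M, with overlapping groups (ratio 1.11, 0.955 to 1.28, edgeR adjusted p = 0.491). It supplied 93.9% to 97.4% of the replication-dependent H1 CPM. On GRCm38 both lie in the large histone cluster of chromosome 13, Hist1h2bc at 23684199 to 23692908 and Hist1h1c at 23738808 to 23740367 (spans of whole genes).

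The annotated transcript of Hist1h1c goes on for 840 bases after its stem-loop. That of Hist3h2a goes on for 1643 bases, that of Hist1h4i for 330 and that of Hist1h2bg for 155. No stem-loop match was found for Hist1h2bc or Hist2h2be, whose annotated transcripts are 1156 and 2620 bases long. Counted in CPM, the members with over 100 annotated bases after the stem-loop had a median of 0.649 CPM (19 genes, highest 65.4 CPM) and those with up to 100 bases a median of 0.345 CPM (18 genes, highest 2.19 CPM). Per kb the order turned round, with medians of 0.451 and 0.683 CPM per kb, and the highest values remained with the longer group (41.9 against 4.16 CPM per kb). Across the 37 genes Spearman's rho between bases after the stem-loop and level was 0.39 for CPM and -0.18 for CPM per kb. The merged exons include the bases after the stem-loop, so a longer tail by itself lowers CPM per kb and adds length on which CPM is counted. The change of order between the 2 measures therefore does not show how the tail relates to the level. This is a description over genes that share libraries and, in part, reads.

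**Figure D3:**
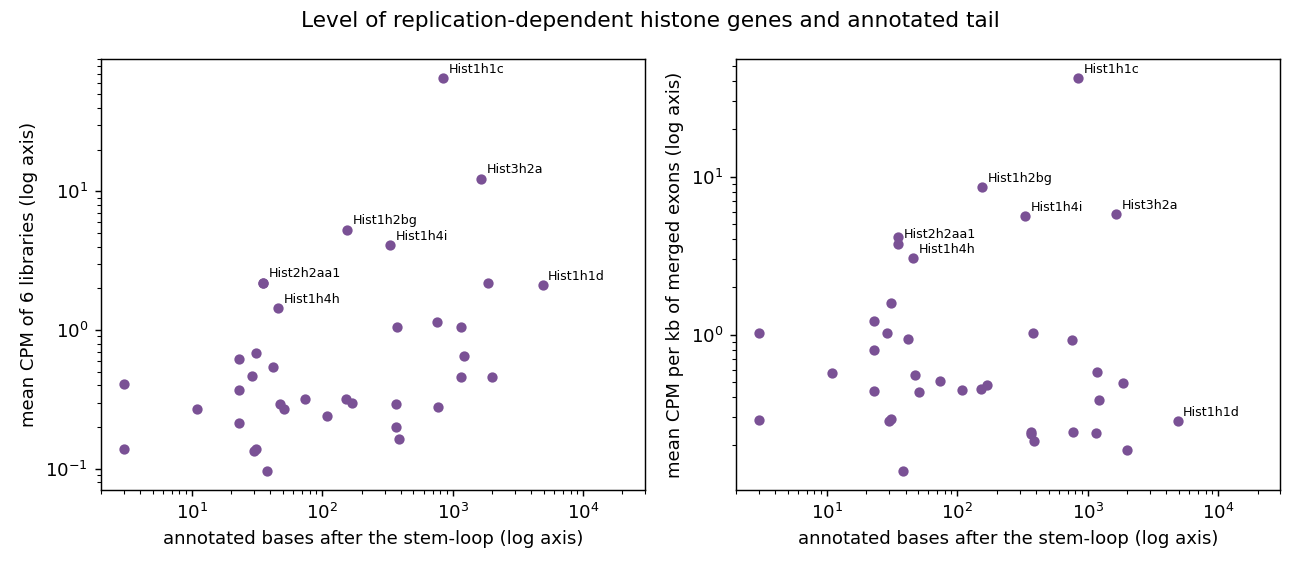
Mean level of the 37 replication-dependent genes with a stem-loop against the number of annotated transcript bases after it, as CPM on the left and as CPM per kb of merged exons on the right, all axes logarithmic. Hist1h1c, Hist3h2a, Hist1h2bg and Hist1h4i stand above the other points in both panels. Hist1h1d, with the longest annotated tail, is among the lower points per kb, where the tail is part of the length divided by.

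The next genes by level also showed no called difference. Hist3h2a, an H2A gene of the small cluster on chromosome 11 (58954685 to 58956830), was at 13.1, 16.2 and 12.1 CPM in H3WT and at 10.5, 11.0 and 11.3 CPM in H3K9M. All H3K9M samples lay below all H3WT samples, with a log2 fold change of -0.34 ± 0.14 and an unadjusted p of 0.0372 that did not hold over all genes (edgeR adjusted p = 0.268). Of its 50-base words 31.5% also occur in another annotated gene, with the largest share in Trim17, which overlaps it on the same strand, so part of its reads may be of that gene. Hist2h2be, an H2B gene, was at 6.11 ± 1.22 CPM in H3WT against 5.62 ± 0.156 CPM in H3K9M (edgeR adjusted p = 0.809). Hist1h2bg, another H2B gene, was at 5.24 ± 1.19 and 5.33 ± 0.751 CPM (edgeR adjusted p = 0.970), and the H4 gene Hist1h4i at 3.64 ± 0.396 and 4.50 ± 1.62 CPM (edgeR adjusted p = 0.648).

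The smallest p among all histone genes belonged to the H2A genes of the Hist2 cluster. Hist2h2aa1 was at 1.44, 1.42 and 1.38 CPM in H3WT and at 3.86, 2.91 and 2.15 CPM in H3K9M (81, 79 and 94 counts against 226, 177 and 123). Every H3K9M sample was above the narrow range of H3WT, and the H3K9M samples were themselves far more spread than those of H3WT. The log2 fold change was 1.07 ± 0.30, a ratio of 2.10 (95% interval 1.32 to 3.34), with an unadjusted p of 0.00598 and an edgeR adjusted p of 0.114. With DESeq2 its adjusted p was 0.0185, which passed the threshold. Without H3K9M replicate 1, its highest sample, the log2 fold change was 0.84 (edgeR adjusted p = 0.324), and over all 6 fits without 1 sample each the edgeR adjusted p was between 0.130 and 0.324. In the authors' deposited table its log2 fold change was 0.65 ± 0.43 (SE) with an adjusted p of 0.569.

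Hist2h2aa2 held the same counts as Hist2h2aa1 in all 6 samples, so the 2 genes are 1 measurement. On GRCm38 they lie close together on opposite strands of chromosome 3, Hist2h2aa2 at 96239749 to 96240276 and Hist2h2aa1 at 96245497 to 96246082. All 50-base words of Hist2h2aa2 and 89.4% of those of Hist2h2aa1 occur in another annotated gene as well, with Gm20634 sharing the most. That gene overlaps Hist2h2aa1 and Hist2h3c1 on the same strand and has no row in the count table, so part of their reads may be of it. Their neighbours Hist2h3c2 (96238108 to 96239127) and Hist2h3c1 (96246685 to 96248509) encode H3 and form a second such pair, whose counts were equal in 5 of 6 samples and differed by 1 read in the other. Hist2h3c1 was at 0.606, 0.919 and 0.764 CPM in H3WT and at 1.38, 1.61 and 1.03 CPM in H3K9M. Its groups did not overlap, with a log2 difference of 0.81 ± 0.38 (edgeR adjusted p = 0.339). The H2B gene Hist2h2bb, on the same chromosome, was at 0.0891, 0.0540 and 0.220 CPM in H3WT and at 1.08, 0.378 and 0 CPM in H3K9M, so its lowest and its highest sample were both in H3K9M. Of the 6 Hist2 rows, which are 4 measurements, 5 had positive fold changes and 0 passed the test. The groups stood apart in 4 of the 6 rows, that is in 2 of the 4 measurements, beside 22.6% of all tested genes.

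**Figure D4:**
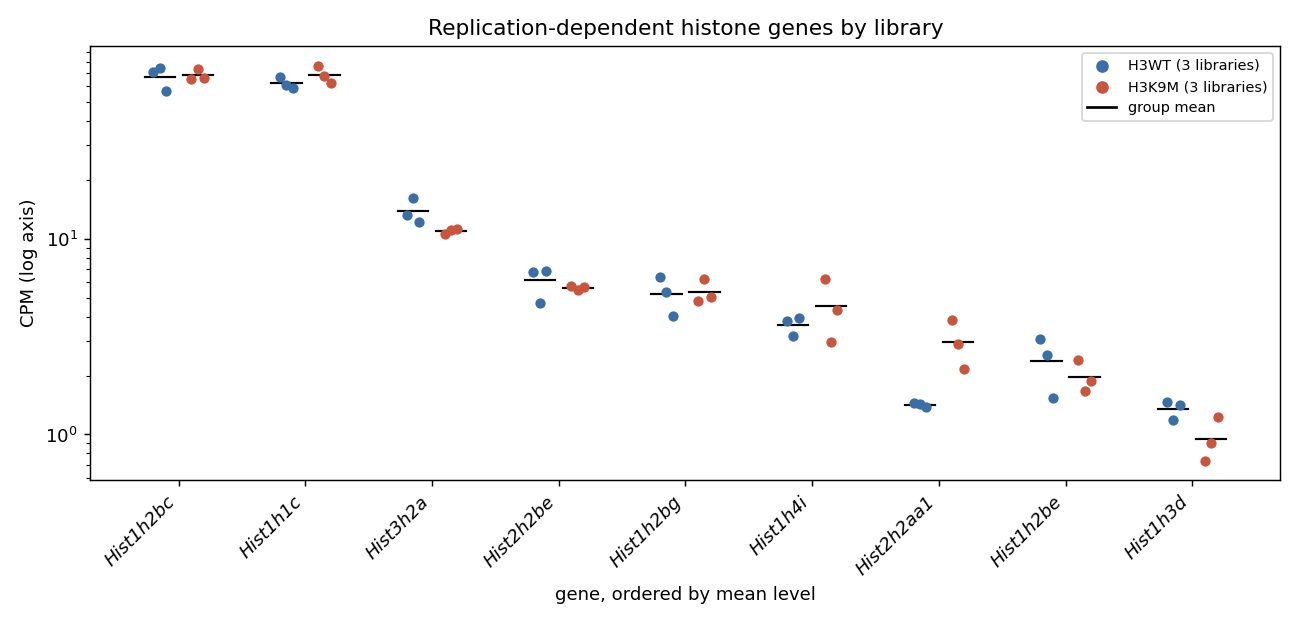
CPM of the named replication-dependent histone genes on a log axis, with 1 point per library (blue H3WT, red H3K9M) and a black line at each group mean. Hist2h2aa1 (same counts as Hist2h2aa2) has its 3 H3K9M points between 2.15 and 3.86 CPM, above the H3WT points near 1.4 CPM. Hist1h2bb is left out because 1 library is at 0, and Hist2h3c1, Hist2h3c2 and Hist2h2bb, named as neighbours in their cluster, are not drawn.

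The largest positive log2 fold change came from 1 library. Hist1h2bb, an H2B gene, had 2, 11 and 5 counts in H3WT and 21, 184 and 0 counts in H3K9M. H3K9M replicate 2 alone stood out, at 3.03 CPM against at most 0.359 CPM elsewhere, and the sample with 0 counts was of the same group. The log2 fold change of 3.45 ± 1.49 (edgeR adjusted p = 0.299) was 0.81 without that sample (edgeR adjusted p = 0.839) and 1.30 with limma-voom. A negative fold change among genes over 1 CPM was found for Hist1h3d, an H3 gene, at 1.35 ± 0.145 CPM in H3WT against 0.954 ± 0.247 CPM in H3K9M (-0.51 ± 0.36, edgeR adjusted p = 0.541). The H2B gene Hist1h2be was at 2.38 ± 0.789 and 1.97 ± 0.376 CPM (edgeR adjusted p = 0.749). Across the cluster on chromosome 13, 19 of 34 tested Hist1 genes had positive and 15 negative fold changes, and in 0 of them did the groups stand apart, beside 22.6% of all tested genes. For the 42 tested replication-dependent genes the median width of the 95% interval of the log2 fold change was 2.56, and in 6 of them the interval lay within 2-fold in either direction.

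Many of these genes cannot be counted apart from one another. Hist1h2bq and Hist1h2br had the same counts in all samples, as had Hist1h2ao and Hist1h2ap. Over 50% of the 50-base words of a transcript occurred in another gene for 24 of the 48 replication-dependent members, with a median of 51.7%, and for 0 of the 10 variant genes, with a median of 4.17%. The 8 replication-dependent H3 genes had coding sequences at least 93.9% identical to each other. An exon of another gene lies on the opposite strand of 7 variant and 12 replication-dependent members, and the strand setting of the counting is not given in the sources used here.

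Summed over genes, with each set of shared counts taken once, replication-dependent histones were at 188, 186 and 160 CPM in H3WT and at 195, 187 and 178 CPM in H3K9M. The groups overlapped. The 11 variant genes summed to 2565, 2628 and 2339 CPM in H3WT and to 2437, 2334 and 2168 CPM in H3K9M, again with overlap. Replication-dependent genes made up 6.82%, 6.62% and 6.42% of all histone CPM in H3WT and 7.39%, 7.43% and 7.57% in H3K9M. These shares did not overlap between the groups, and the gap between them was wider than the range within either group. More than any other gene, H3f3a makes up the denominator, and its reads can include those of the transgene. Without H3f3a and H3f3b the shares were 19.1%, 18.2% and 17.0% in H3WT and 20.4%, 19.6% and 20.6% in H3K9M, still without overlap but with a gap narrower than the range within H3WT. That denominator was chosen after seeing the data. No test was made of these shares, since the members were chosen as a list. In bulk RNA, fewer cells of one type and less RNA per cell cannot be told apart.

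By family, the split of CPM between variant and replication-dependent genes was very uneven. The H3.3 genes supplied 99.7% to 99.8% of the CPM of all H3 members, and H2A variants 95.8% to 96.3% of that of all H2A members. These are shares of polyadenylated RNA, in which an mRNA that ends at its stem-loop is expected to be captured poorly. They are not set per length, and the H3.3 counts may include transgene reads. For H1 the variant share was 84.8%, 85.6% and 85.6% in H3WT and 81.1%, 84.1% and 82.4% in H3K9M. These did not overlap, but the gap was narrower than the range within either group, and no test was made of this share. The symbol pattern that chose the members covers no variant symbols of H4 or H2B. H4 genes summed to 7.29 ± 0.560 CPM in H3WT and 8.25 ± 2.37 CPM in H3K9M, and H2B genes to 85.3 ± 10.7 and 86.2 ± 5.96 CPM.

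**Figure D5:**
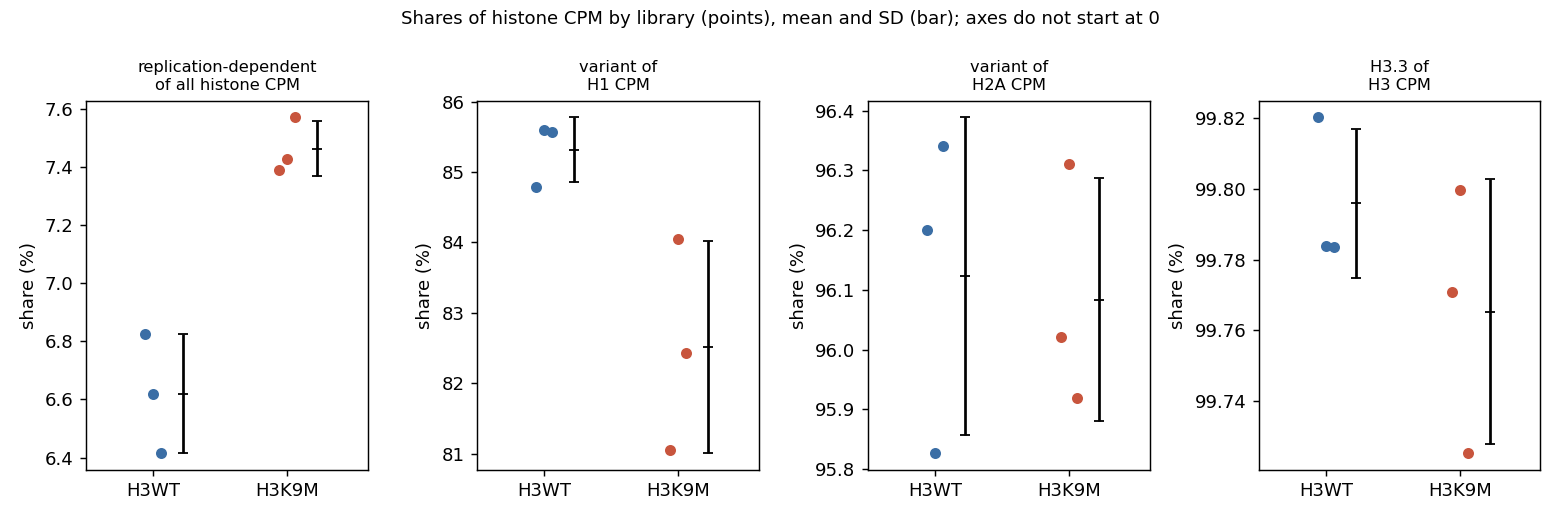
Share in percent of histone CPM in each library (points), with the group mean and SD (bars), for replication-dependent genes among all histone members and for variant genes within H1, H2A and H3; the axes do not start at 0. The shares of replication-dependent genes (6.42% to 6.82% in H3WT, 7.39% to 7.57% in H3K9M) and of H1 variants lie apart between groups, and those of H2A and H3 variants overlap. For H1 variants the gap is narrower than the range within either group.

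No gene of the S phase list passed the test, where edgeR called 1.99% of all tested genes. Of the 28 genes of the list 26 had negative fold changes, beside 7449 of all 14758 tested genes. The median log2 fold change was -0.18, beside -0.0024 over all genes. In 4 of the 28 the groups did not overlap (14.3%, against 22.6% of all tested genes), and 4 had an unadjusted p under 0.05, where 16.4% of all tested genes did. Cdt1, a licensing factor of replication origins, was at 20.1, 19.6 and 25.1 CPM in H3WT and at 17.0, 12.7 and 14.4 CPM in H3K9M. Its groups stood apart, with a log2 difference of -0.56 ± 0.15 (edgeR adjusted p = 0.0990; DESeq2 adjusted p = 0.0159). Tyms, thymidylate synthase, had a log2 difference of -0.42 ± 0.11 (edgeR adjusted p = 0.110, DESeq2 adjusted p = 0.0300). DESeq2 thus called 2 of the 28 genes, where it called 6.9% of all tested genes. Rrm1, a ribonucleotide reductase subunit and the most abundant gene of the list, was at 204 ± 36.0 and 193 ± 14.8 CPM. The summed level of the list lay between 1028 and 1376 CPM in H3WT and between 1002 and 1270 CPM in H3K9M. Of 15 genes of G2 and mitosis 12 had negative fold changes and 0 were called (median -0.07), with Mki67, a marker of cycling cells, at 366 ± 42.5 and 311 ± 26.7 CPM. Cenpf (-0.26 ± 0.09, edgeR adjusted p = 0.188) and Aurkb (-0.34 ± 0.12, edgeR adjusted p = 0.202) had the smallest p of that list. Their part in the histone values was not tested.

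The genes that make and handle histone mRNA likewise gave no call. Of 17 genes of histone mRNA transcription and 3′ processing 11 had negative fold changes (median -0.02). With edgeR 0 passed, beside 1.99% of all tested genes, a share at which so short a list is expected to hold few calls. Npat, the coactivator of histone gene transcription, was at 34.9 ± 1.49 CPM in H3WT against 29.9 ± 1.86 CPM in H3K9M (-0.22 ± 0.09, edgeR adjusted p = 0.258). Slbp, whose product binds the stem-loop, was at 28.3 ± 1.79 and 24.2 ± 1.90 CPM (-0.23 ± 0.10, edgeR adjusted p = 0.303). Sympk, a scaffold of the cleavage complex, was the most abundant, at 142 ± 11.8 and 141 ± 5.41 CPM.

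Of 23 histone chaperone genes 17 had negative fold changes (median -0.06). With edgeR 0 passed, beside 1.99% of all tested genes. The groups stood apart in 8 of the 23 (34.8%, against 22.6% of all tested genes), 5 of them with H3K9M higher. The nucleosome assembly gene Nap1l1 was at 253, 297 and 297 CPM in H3WT and at 338, 341 and 344 CPM in H3K9M. Its groups did not overlap, but the gap was narrower than the range within H3WT. The log2 difference was 0.27 ± 0.08 (edgeR adjusted p = 0.157, DESeq2 adjusted p = 0.0415). DESeq2 called 1 of the 23 genes, where it called 6.9% of all tested genes. Dnajc9, a chaperone of H3 and H4, had a log2 difference of -0.24 ± 0.11 (edgeR adjusted p = 0.304). Among 10 genes of H2A.Z exchange 5 had positive and 5 negative fold changes and 0 passed (median 0.0089). The remodeller gene Srcap was at 230 ± 8.66 and 224 ± 19.1 CPM, and the smallest p were those of Ep400 (-0.10 ± 0.08, edgeR adjusted p = 0.569) and Ruvbl1 (0.17 ± 0.13, edgeR adjusted p = 0.572).

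The libraries held 55550379 to 67994773 counts, of which the histone members made up 0.231% to 0.279%. The labelled heart cells expressed their defining markers, with all 10 genes of the cardiomyocyte list tested, Myh6 at 14926 ± 2157 CPM in H3WT against 15722 ± 1426 CPM in H3K9M. Markers of other cell types were present as well. All 8 fibroblast genes (12844 to 19328 CPM summed in H3WT, 11535 to 18315 in H3K9M), all 8 endothelial genes (500 to 619 and 459 to 529), all 7 smooth muscle and pericyte genes (5568 to 7407 and 5362 to 5829), all 6 epicardial genes (11.8 to 17.5 and 20.1 to 34.8) and all 9 macrophage and leukocyte genes (128 to 471 and 193 to 249) were tested. Of these, edgeR called 1, the epicardial gene Krt8, where 1.99% of all tested genes were called. The median log2 fold change was 1.37 for the epicardial list (5 of 6 positive) and -0.55 for the endothelial list (7 of 8 negative). For fibroblast genes it was -0.56 (6 of 8 negative), and for smooth muscle and pericyte genes -0.15. It was -0.27 for the macrophage and leukocyte list and 0.11 for the cardiomyocyte list. With edgeR, 5 endothelial, 3 epicardial, 2 cardiomyocyte and 1 fibroblast gene had an unadjusted p under 0.05, where 16.4% of all tested genes did. DESeq2, which called 6.9% of all tested genes, also called the endothelial gene Tek (-0.99, adjusted p = 0.00976) and the cardiomyocyte gene Pln (0.37, adjusted p = 0.00522). The 7 erythroid genes of the list have no row. Whether the makeup of the cultures played a part in any histone value was not tested.

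The authors' deposited table lists 46 of the 59 histone genes, and 0 of the 39 with an adjusted p there pass 0.05, against 4.1% of all genes with one. Their smallest adjusted p among the histone genes was 0.375, for Hist3h2a. The mean normalised count in that table was at a median of 0.252 times the mean scaled count computed here, so the authors' table rests on other counts than those of the deposited count table. Of the 43 histone genes in both fits 35 had the same sign, among them all 10 variant genes. Over all genes in both fits it was 11975 of 14315.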

How the data were processed

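Polyadenylated RNA of 6 samples (3 H3WT, 3 H3K9M) was sequenced. HISAT2, featureCounts, DESeq2 and build mm10 are listed, without versions, in the submitters' processing notes. No strand setting is stated there. The authors deposited raw read counts per gene (15159 rows, smallest row total 19) and a table of their own comparison. The latter holds a mean normalised count as a signal, a log2 fold change with its error and p-values, all deposited by the authors, and the authors' Wald score, left unused.

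Genes were filtered with filterByExpr (minimum 10 counts, 15 in total) and scaled by TMM. The groups were compared over 14758 genes with edgeR 4.0.16 (quasi-likelihood F test, group only, Benjamini-Hochberg adjustment, R 4.3.3), with a common dispersion of 0.0353. The standard error is the log2 fold change over the square root of F, and 95% intervals use the test's degrees of freedom. With 3 against 3 samples the smallest exact permutation p for 1 gene is 0.1. Alternatives were DESeq2 1.42.0, limma-voom (limma 3.58.1), RLE factors, other filters, a replicate block, a threshold of 0.1 and each sample left out. Counting identical rows once was added after seeing the data. The steps were checked on simulated counts. Replicates differed by a chi-square per gene of 26.5 to 117.8, so none is a copy.

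The members and the gene lists were chosen with earlier results of these data known. Named are all tested variant genes, the 8 replication-dependent genes with the highest mean CPM, the 3 with the largest positive and the 3 with the largest negative fold changes among those with at least 1 CPM in a group, and of each list the 2 genes with the smallest p and the most abundant one. Hist2h3c1, Hist2h3c2 and Hist2h2bb were named after their values were seen, as neighbours in their cluster. Symbols were matched to GENCODE M21 (GRCm38, also called mm10), where 58 of 59 members have a protein-coding transcript.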

Additional observations from a re-analysis of the deposited data

How the results depend on the processing

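Among the histone genes, 0 variant genes were called under every alternative run, and 0 replication-dependent genes under all but DESeq2, which called 2 of the 41 histone genes it gave an adjusted p (Hist2h2aa1 and Hist2h2aa2, log2 fold change 1.07, adjusted p 0.0185). DESeq2 also called 2 S phase genes and 1 chaperone gene and, over all genes, 475 higher and 544 lower, against 138 and 155 with edgeR. At an adjusted p under 0.1 the counts over all genes were 308 and 356, with Cdt1 (0.0990) among the lower genes and 0 histone genes. Without 1 sample at a time they ran from 30 to 149 higher and from 30 to 223 lower, lowest without H3WT replicate 2. In those fits the log2 fold change was followed only for tested variant genes and for replication-dependent genes named by level or fold change. Among these genes the sign changed for H2afy (-0.0056 to 0.058), Hist1h2bc (-0.084 to 0.10) and Hist1h2bg (-0.14 to 0.19), none of them called in any fit. For the remaining histone genes a change of sign was not examined.

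Without the member with the most counts, H3f3a or Hist1h2bc, the summed levels were 1046 CPM in H3WT and 953 CPM in H3K9M for variant genes (2511 and 2313 with it) and 115 and 124 CPM for replication-dependent genes (182 and 192 with it, each row counted). With the replicate number as a block, 31 genes were higher and 27 lower and 0 histone genes passed. Deviations of same-numbered samples correlated at -0.16, 0.03 and -0.07 and no sample matched its own number best, so no pairing by number was seen. With 3 samples per group this cannot exclude a pairing. The titles of replicates 1 and 3 carry the same M label in both groups, and those of replicate 2 do not. Depth limits the replication-dependent genes most, of which 6 had a mean under 10 counts. The causes of these changes were not tested.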

Other observations

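Cenpa and Hils1 are histone genes whose symbols lie outside the pattern that chose the members, and both were named after their values were seen. Cenpa, the H3 variant of centromeres, was at 33.0, 35.3 and 33.9 CPM in H3WT and at 39.3, 31.3 and 31.1 CPM in H3K9M, a log2 difference of -0.0068 ± 0.11 (edgeR adjusted p = 0.983). Hils1, a linker histone gene of spermatids, was at 0.231 ± 0.106 and 0.216 ± 0.124 CPM (edgeR adjusted p = 0.961).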
